A study of Rattus norvegicus with 36 samples.

Results

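The 10 genes described here serve antigen presentation by MHC class I: the heavy chains RT1-A1 and RT1-S3, the light chain B2m, the peptide transporter and loading genes Tap1, Tap2 and Tapbp, the immunoproteasome subunits Psmb8, Psmb9 and Psmb10, and Ubd, which encodes the ubiquitin-like modifier FAT10. They were chosen as every probe whose target name, current symbol or synonym matched one of these names. The names themselves were chosen with earlier results of these data known. All 10 genes were on the array, with 11 of its 22523 probes, and all 10 passed the detection filter among 9314 genes tested. Psmb10 had 2 probes, and the probe with the higher mean stands for the gene.

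The study measured liver RNA of male Wistar rats on Illumina bead arrays, 1 array per rat. Rats were vitamin A sufficient (VAS) or vitamin A deficient (VAD) before the operation, had a sham operation or a bile duct ligation (BDL), which blocks bile flow, and received daily intraperitoneal retinyl palmitate (VITA), an ester of vitamin A, or vehicle (VEH). The 8 groups comprised VAS sham VEH, VAS sham VITA, VAD sham VEH and VAD sham VITA with 4 rats each, and VAS BDL VEH, VAS BDL VITA, VAD BDL VEH and VAD BDL VITA with 5 rats each. The sources used here give no age, diet length, dose or time after the operation.

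Class I molecules display peptides from the cell's own proteins to cytotoxic T cells. A heavy chain pairs with B2m, takes up peptide that Tap1 and Tap2 carry into the endoplasmic reticulum, and is held there by tapasin, the product of Tapbp, until peptide is bound. The immunoproteasome is a form of the proteasome in which Psmb8, Psmb9 and Psmb10 replace the constitutive catalytic subunits Psmb5, Psmb6 and Psmb7, and interferon gamma raises it in many cell types. FAT10 marks proteins for the proteasome and is known to be induced by interferon gamma and tumour necrosis factor. Class I heavy-chain genes of the rat differ in number and sequence among haplotypes, and Wistar is an outbred stock.

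Values are log2 intensities after background correction and quantile normalisation, and a difference of 1 on this scale is a 2-fold change. Between 6577 and 8587 probes were detected per array at a detection p under 0.01, which is 29.2% to 38.1% of all probes. Bead arrays give intensities, so read depth does not apply, and what limits the precision was not tested. RT1-A1, RT1-S3, B2m, Tapbp, Psmb8, Psmb9, Psmb10 and Ubd were detected on all 36 arrays, Tap2 on 35 and Tap1 on 34. The B2m probe had raw intensities of 24542 to 44479, where the brightest probe of an array read 31288 to 48767, and whether it was near saturation was not tested. Arrays lay on 3 slides that each held several groups. The 6 tested hepatocyte markers were detected in every group, and the log2 of their summed level lay between 16.74 and 17.06 on the 36 arrays. The brightest probes lead such a sum, and quantile normalisation gives them nearly the same value on every array. Single markers fell after ligation: 1 in VAS VEH, 2 in VAD VEH, 2 in VAS VITA and 2 in VAD VITA rats, by up to 1.27. The shares of all genes called in these comparisons were 17.4%, 40.5%, 25.3% and 24.3%.

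Of the 10 genes, 8 lie on chromosome 20 of GRCr8, the rat assembly from which the RefSeq coordinates were taken. Tap2 (4638257 to 4652296), Psmb8 (4654068 to 4657049), Tap1 (4658171 to 4668543) and Psmb9 (4668952 to 4674421) are neighbours, followed by RT1-A1 (4907139 to 4910798) and Tapbp (4958821 to 4967958). RT1-S3 (2675463 to 2680229) and Ubd (1390734 to 1392685) lie at lower coordinates of the same chromosome. Psmb10 is on chromosome 19 (50740808 to 50743292) and B2m on chromosome 3 (129549236 to 129555354).

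RefSeq windows from 250 bases before to 50 bases after the annotated start site were available for all 10 genes and were searched on both strands for motifs of interferon, NF-kappa B and nuclear receptor signalling. The core of the interferon-stimulated response element, GAAANNGAAA, was in 7 of the 10 windows (RT1-S3, B2m, Tap1, Tap2, Tapbp, Psmb8 and Psmb10), against 3.92% of 33469 windows of the same length. The kappa B motif GGGNNTTNCC was in 5 windows (RT1-A1, B2m, Tap1, Tapbp and Ubd), against 5.00% of all windows. The gamma-activated sequence TTCNNNGAA was in 1 window, that of Psmb8, against 8.87%, and the nuclear receptor half-site AGGTCA was in 2, those of RT1-A1 and Tap2, against 16.2%. The windows of Tap1 and Psmb9, which are transcribed away from each other, overlap by 44 bases. A match is a stretch of letters and not a site shown to be bound. The 250 bases before the start site are shown for Tapbp, Psmb10 and Ubd, the genes that rose after ligation in every setting of diet and treatment, and for Tap1, RT1-A1 and RT1-S3, whose patterns across the groups differed from these. For Tapbp, RT1-A1 and RT1-S3 the start site of the window lies inside the gene span given above. Part of their printed stretch is therefore within that span, and the marked Tapbp motifs lie in that part. Capitals mark the motifs, and each sequence is written 5′ to 3′ on the gene's own strand.
Tapbp, chr20:4967878-4968127, minus strand, GRCr8: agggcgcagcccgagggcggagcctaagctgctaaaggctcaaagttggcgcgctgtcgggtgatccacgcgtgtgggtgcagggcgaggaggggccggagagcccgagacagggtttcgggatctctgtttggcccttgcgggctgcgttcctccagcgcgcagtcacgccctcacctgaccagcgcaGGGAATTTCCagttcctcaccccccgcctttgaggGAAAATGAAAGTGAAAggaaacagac
Psmb10, chr19:50743293-50743542, minus strand, GRCr8: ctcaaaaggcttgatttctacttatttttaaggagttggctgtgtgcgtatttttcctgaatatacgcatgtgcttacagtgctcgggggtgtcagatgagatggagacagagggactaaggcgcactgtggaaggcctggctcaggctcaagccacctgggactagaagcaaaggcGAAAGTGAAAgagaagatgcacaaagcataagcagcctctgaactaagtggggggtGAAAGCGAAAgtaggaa
Ubd, chr20:1392686-1392935, minus strand, GRCr8: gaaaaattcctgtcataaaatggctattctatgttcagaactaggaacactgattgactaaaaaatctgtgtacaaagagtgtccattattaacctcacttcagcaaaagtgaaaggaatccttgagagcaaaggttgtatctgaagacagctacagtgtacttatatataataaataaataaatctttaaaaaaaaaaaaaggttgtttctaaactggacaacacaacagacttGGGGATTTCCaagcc
Tap1, chr20:4668544-4668793, minus strand, GRCr8: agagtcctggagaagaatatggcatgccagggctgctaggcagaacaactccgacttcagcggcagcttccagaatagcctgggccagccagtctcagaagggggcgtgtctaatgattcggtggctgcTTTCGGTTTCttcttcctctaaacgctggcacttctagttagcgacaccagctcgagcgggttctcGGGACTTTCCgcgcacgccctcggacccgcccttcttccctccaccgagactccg
RT1-A1, chr20:4906959-4907208, plus strand, GRCr8: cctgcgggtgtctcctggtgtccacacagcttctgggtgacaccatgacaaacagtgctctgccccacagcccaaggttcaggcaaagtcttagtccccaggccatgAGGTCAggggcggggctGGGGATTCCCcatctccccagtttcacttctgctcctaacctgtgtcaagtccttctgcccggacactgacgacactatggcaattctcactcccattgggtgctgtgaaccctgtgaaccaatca
RT1-S3, chr20:2675278-2675527, plus strand, GRCr8: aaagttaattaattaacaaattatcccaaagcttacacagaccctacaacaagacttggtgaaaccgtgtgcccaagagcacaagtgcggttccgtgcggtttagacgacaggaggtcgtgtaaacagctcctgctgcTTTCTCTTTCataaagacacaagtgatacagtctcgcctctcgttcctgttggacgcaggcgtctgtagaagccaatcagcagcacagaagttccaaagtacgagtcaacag

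Ligation raised most of the genes in sufficient rats given vehicle. VAS BDL VEH exceeded VAS sham VEH for 7 of the 10 genes at an adjusted p under 0.05 (limma, Benjamini-Hochberg over 9314 genes), and none was lower, where 17.4% of all genes tested passed in either direction and 10.5% passed as higher. The median difference of the 10 genes was 0.99, beside -0.01 over all genes. All arrays of the 2 groups were separated for the same number of genes, 7, where 19.1% of all genes had groups that did not overlap. Whole liver was measured, so more cells of a type and more RNA per cell cannot be told apart. Markers of other cells moved in the same comparison. All 6 tested leukocyte markers and 7 of 9 macrophage markers were higher, while another macrophage marker was lower by 1.31. Of the cholangiocyte markers 3 of 6 were higher, and of the stellate cell markers 2 of 3. The log2 of the summed leukocyte level was 11.04 to 11.26 in VAS BDL VEH against 9.76 to 10.24 in VAS sham VEH. Their part in the result was not tested.

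Ubd had the largest difference of the 10 genes in 3 of the 4 ligation comparisons, and in VAD vehicle rats RT1-A1 had a larger one. Its levels in VAS sham VEH were 9.19, 9.74, 9.43 and 10.64, and in VAS BDL VEH 13.57, 13.45, 13.68, 14.35 and 13.66. The lowest ligated array was thus well above the highest sham array, and the difference was 3.99 ± 0.61 (SE), or 15.9-fold (adjusted p = 1.3e-05). In VAS rats given retinyl palmitate, the 4 sham arrays read 10.20, 10.96, 10.06 and 9.98, and the 5 ligated arrays read 13.56, 13.50, 14.07, 14.58 and 13.81. Again the groups did not overlap, with a difference of 3.60 ± 0.61, and ligation with retinyl palmitate in VAD rats gave 2.90 ± 0.61. In VAD rats given vehicle, 4 of the ligated arrays were at 13.22, 13.35, 13.17 and 12.98, and the remaining one, replicate 4, was at 8.53, below all 4 sham arrays (9.68, 10.60, 9.88 and 9.77). With that array the difference was 2.27 ± 0.61 (adjusted p = 0.0032), and without it 3.20 ± 0.40 (adjusted p = 1e-07).

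**Figure D1:**
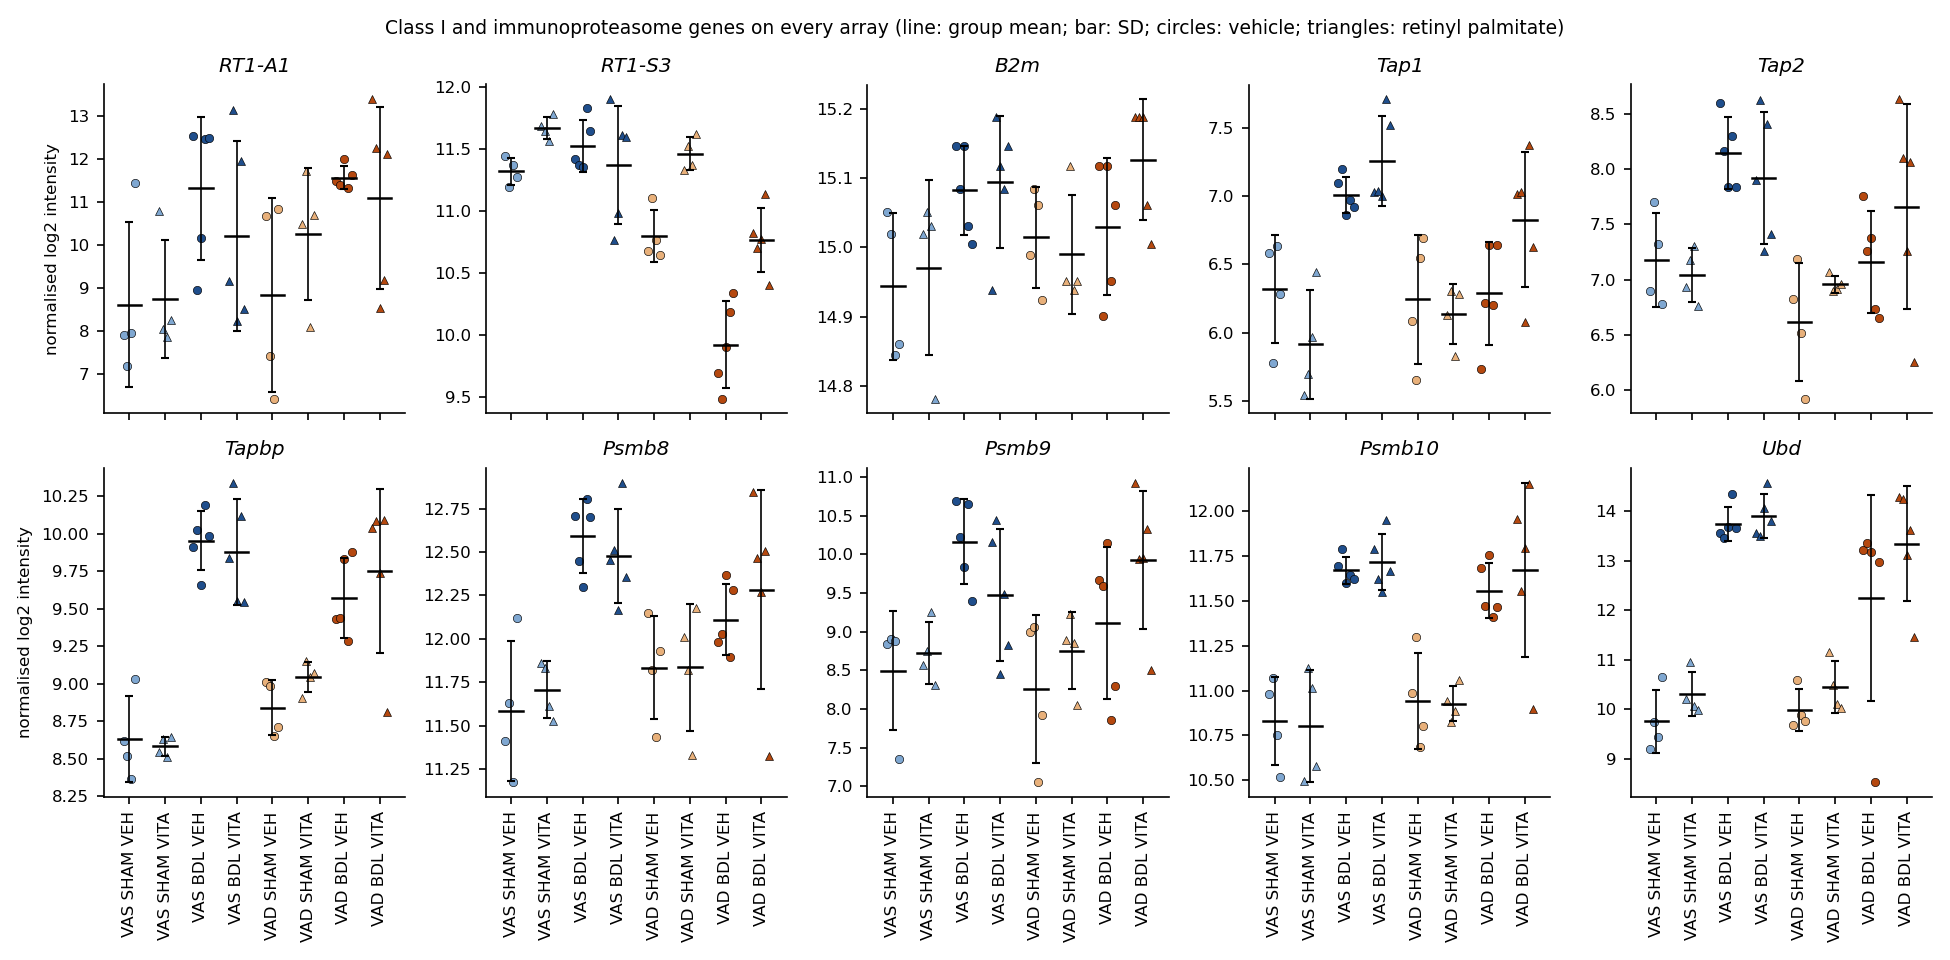
Normalised log2 intensity of each of the 10 genes (1 panel each, with its own axis) on the 36 arrays, by group, with the group mean as a line and the SD as a bar. Ubd, Tapbp and Psmb10 are higher in ligated than in sham groups of both diets, RT1-S3 is lowest in VAD BDL VEH (9.48 to 10.34), and the RT1-A1 arrays of most groups are spread over several log2 units.

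The immunoproteasome subunits rose in sufficient vehicle rats by unequal amounts. Psmb10, which carries trypsin-like activity, read 10.98, 11.07, 10.75 and 10.52 on the VAS sham VEH arrays and 11.70, 11.79, 11.60, 11.64 and 11.62 on the VAS BDL VEH arrays, without overlap. The Psmb10 difference was 0.84 ± 0.18 (adjusted p = 0.00075). Psmb8, the chymotrypsin-like subunit, read 11.41, 11.63, 11.18 and 12.12 in VAS sham VEH and 12.71, 12.45, 12.30, 12.81 and 12.70 in VAS BDL VEH. Its groups did not overlap either, and its difference was 1.01 ± 0.22 (adjusted p = 0.0012). Psmb9 showed the widest spread of the subunits, with 8.85, 8.91, 8.88 and 7.35 in VAS sham VEH and 10.69, 10.23, 9.84, 10.65 and 9.40 in VAS BDL VEH. Its difference was 1.66 ± 0.48 (adjusted p = 0.014). Without the low sham array, replicate 4, the Psmb9 difference was 1.28 with an adjusted p of 0.089.

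The constitutive subunits that these replace stayed within a narrow range. Psmb5, Psmb6 and Psmb7 passed in none of the 17 comparisons, and none of the 3 reached an unadjusted p under 0.05 in any of them (limma). Their log2 differences lay between -0.14 and 0.22 for Psmb5, between -0.11 and 0.24 for Psmb6, and between -0.22 and 0.27 for Psmb7. Of the 11 other subunits of the proteasome core, 1 was higher after ligation in VAS vehicle rats, Psma6 by 0.34 (adjusted p = 0.042). Psme1, a subunit of the interferon-inducible proteasome activator PA28, was the 1 of 4 activator genes that rose in the same comparison, by 0.41 (adjusted p = 0.019).

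The peptide transport and loading genes rose as well. Tapbp read 8.62, 8.52, 8.36 and 9.03 in VAS sham VEH and 9.91, 10.03, 9.66, 10.19 and 9.99 in VAS BDL VEH, a gap without overlap and a difference of 1.32 ± 0.20 (adjusted p = 9.9e-06). Tap2 read 6.90, 7.71, 7.33 and 6.78 in VAS sham VEH and 8.59, 8.16, 7.84, 8.30 and 7.84 in VAS BDL VEH, with a difference of 0.97 ± 0.33 (adjusted p = 0.04). Tap1 read 6.59, 5.78, 6.64 and 6.28 in VAS sham VEH and 7.09, 7.20, 6.86, 6.97 and 6.92 in VAS BDL VEH. Its difference was 0.69 ± 0.24 (adjusted p = 0.043). The Tap1 and Tap2 calls are near the threshold: leaving out single arrays moved the adjusted p up to 0.19 for Tap1 and 0.13 for Tap2, and both were lost without the detection filter (0.083 for each).

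The chains of the class I molecule itself did not pass. RT1-S3 levels were 11.44, 11.19, 11.37 and 11.27 in VAS sham VEH and 11.42, 11.36, 11.35, 11.82 and 11.64 in VAS BDL VEH, so the groups overlapped. The difference was 0.20, with a 95% confidence interval of -0.17 to 0.58 (adjusted p = 0.52). B2m group means lay between 14.94 and 15.13 in all 8 groups, and its ligation difference was 0.14, with an interval of -0.05 to 0.33 (adjusted p = 0.35). Quantile normalisation gives the brightest probes nearly the same value on every array, and with median scaling the B2m difference was -0.02 (adjusted p = 0.96). RT1-A1 differed by 2.70 ± 1.09 with an adjusted p of 0.089, and its arrays ranged from 7.17 to 11.43 in VAS sham VEH and from 8.96 to 12.53 in VAS BDL VEH.

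**Figure D2:**
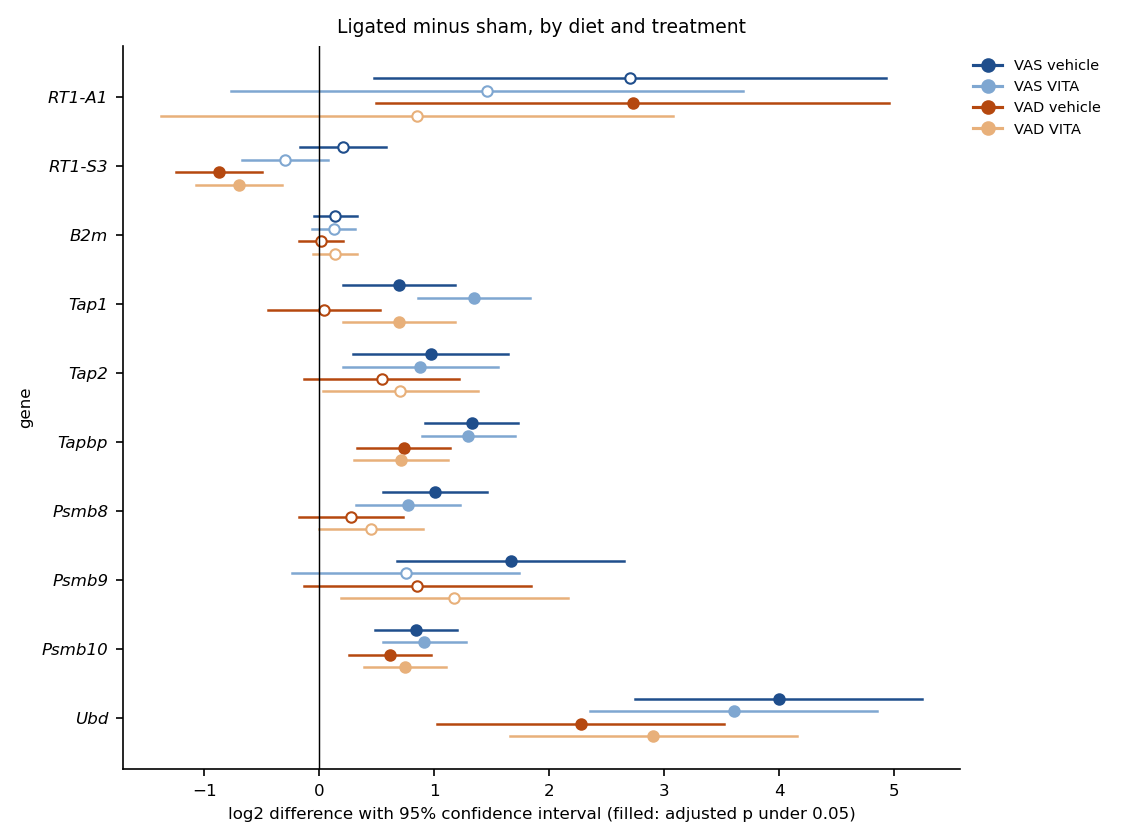
Difference in log2 intensity between ligated and sham rats for the 10 genes, with 95% confidence intervals, in VAS and VAD rats given vehicle or retinyl palmitate; filled points have an adjusted p under 0.05. Ubd, Tapbp and Psmb10 are filled in all 4 settings, and RT1-S3 lies below 0 in both VAD settings.

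In deficient vehicle rats the same operation moved 5 of the genes. VAD BDL VEH exceeded VAD sham VEH for 4 genes and was lower for 1, where 40.5% of all genes passed, so that 5 of 10 lies near the share of all genes. The genes that rose were Ubd, Tapbp by 0.73 ± 0.20 (adjusted p = 0.0034), Psmb10 by 0.61 ± 0.18 (adjusted p = 0.0054) and RT1-A1 by 2.72 ± 1.09 (adjusted p = 0.046). The RT1-A1 call did not hold in 7 of the 9 fits that each left out 1 array, where the adjusted p reached 0.20. The second Psmb10 probe differed by 0.13 here (adjusted p = 0.53), whereas in the other ligation comparisons it passed with 0.65, 0.80 and 0.44. Tap1, at 0.04, and Psmb8, at 0.28, were not called, with adjusted p values of 0.91 and 0.34. RT1-S3 fell: the VAD sham VEH arrays read 10.68, 11.11, 10.76 and 10.64 and the VAD BDL VEH arrays 9.69, 9.48, 9.90, 10.18 and 10.34. These groups did not overlap, and the difference was -0.88 ± 0.18 (adjusted p = 0.00023).

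With retinyl palmitate, ligation raised some of the transport and proteasome genes in each diet. In VAS rats 6 of the 10 genes were higher and none lower, where 25.3% of all genes passed. Tap1 rose there by 1.35 ± 0.24 (adjusted p = 6.5e-05), Tapbp by 1.30 ± 0.20, Psmb10 by 0.91 ± 0.18 and Psmb8 by 0.77 ± 0.22 (adjusted p = 0.0096). Tap2 passed narrowly, with 0.88 ± 0.33 and an adjusted p of 0.0498, and lost the call in 7 of the 9 fits that each left out 1 array. Psmb9 did not pass (adjusted p = 0.27). In VAD rats 4 genes were higher and 1 lower, where 24.3% of all genes passed. Ubd, Psmb10 (0.74 ± 0.18), Tapbp (0.71 ± 0.20) and Tap1 (0.69 ± 0.24, adjusted p = 0.032) rose and RT1-S3 fell by 0.70 ± 0.18 (adjusted p = 0.0049). The Tap1 call held in 12 of 19 alternative settings, and was lost without the detection filter (0.063), with only the compared groups fitted (0.071) and in 5 fits that left out 1 array (adjusted p up to 0.11). Tap2, Psmb8 and Psmb9 did not pass there, with adjusted p values of 0.13, 0.14 and 0.076. In that comparison VAD BDL VITA replicate 5 was the lowest array of its group for Tap2 (6.26), Tapbp (8.81), Psmb8 (11.33) and Psmb9 (8.50). It was also the lowest for Psmb10 (10.90), Ubd (11.46) and RT1-S3 (10.40). Without it 8 of the 10 genes were called in place of 5. It was the 1 array of its group on slide 3, so array and slide cannot be told apart. Without slide 3 the count was also 8. Over the 4 ligation comparisons, 3 genes were called in each (Ubd, Tapbp and Psmb10) and 1 in none (B2m). Under median scaling Psmb10 lost its call in VAD vehicle rats (adjusted p = 0.055) and VAD VITA rats (0.062), and Tapbp lost it in VAD VITA rats when only the compared groups were fitted (0.073).

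Deficiency was examined first in sham rats, where none of the 10 genes passed in vehicle rats and 1.11% of all genes did. At an unadjusted p under 0.05 the limma fit gave 1 of the 10, RT1-S3. Its VAD sham VEH arrays, from 10.64 to 11.11, were all below the VAS sham VEH arrays, from 11.19 to 11.44, but the difference of -0.52 ± 0.19 had an adjusted p of 0.24. In sham rats given retinyl palmitate none passed, no gene of all tested did (0%), and 1 of the 10, Tapbp, had an unadjusted p under 0.05.

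After ligation, deficient vehicle livers had lower levels of 3 of the 10 genes and higher levels of none, where 26.4% of all genes passed in either direction and 12.1% passed as lower, so the count by itself is near the background. RT1-S3 changed most clearly. Its 5 arrays in VAD BDL VEH, from 9.48 to 10.34, were all below the 5 in VAS BDL VEH, from 11.35 to 11.82. The difference was -1.60 ± 0.17, or 3.04-fold lower (adjusted p = 1e-08), and it was called under all 20 alternative settings, with values from -1.79 to -1.46. Within the slides it was -1.70, -1.90 and -1.38. Tap1 was lower by 0.72 ± 0.23 (adjusted p = 0.015), with arrays at 5.73, 6.22, 6.64, 6.20 and 6.64 against 7.09, 7.20, 6.86, 6.97 and 6.92. Tap2 was lower by 0.99 ± 0.31 (adjusted p = 0.017), with arrays at 7.76, 7.26, 7.38, 6.74 and 6.66 against 8.59, 8.16, 7.84, 8.30 and 7.84. Neither transporter gene overlapped between the groups. The groups did not overlap for 4 of the 10 genes, where 20.1% of all genes had groups that did not overlap. Both calls were lost under median scaling, with adjusted p values of 0.073 for Tap1 and 0.063 for Tap2, and in 1 leave-one-out fit for Tap1 (0.069) and 2 for Tap2 (0.054 and 0.051).

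The other members did not pass in ligated vehicle rats. The difference for Psmb8 was -0.48 ± 0.21 (adjusted p = 0.086), for Psmb9 -1.05 ± 0.46 (adjusted p = 0.089), and for Tapbp -0.38 ± 0.19 (adjusted p = 0.14). Psmb10 differed by -0.11, with an interval of -0.45 to 0.22. Ubd differed by -1.49 ± 0.58 (adjusted p = 0.0535), and without the low VAD BDL VEH array, replicate 4, by -0.56 ± 0.38 (adjusted p = 0.32). All its VAD BDL VEH arrays, from 8.53 to 13.35, lay below the VAS BDL VEH arrays, from 13.45 to 14.35. The Ubd difference passed with median scaling (0.045) and without any one of the other 4 VAD BDL VEH arrays (0.029 to 0.043). It also passed with a background correction made without the detection p-values and with an offset of 50 in place of 16 (0.049). In ligated rats given retinyl palmitate none of the 10 genes differed between the diets at the threshold, where 0.0322% of all genes did, and 1, RT1-S3, had an unadjusted p under 0.05 (-0.61, adjusted p = 0.18).

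**Figure D3:**
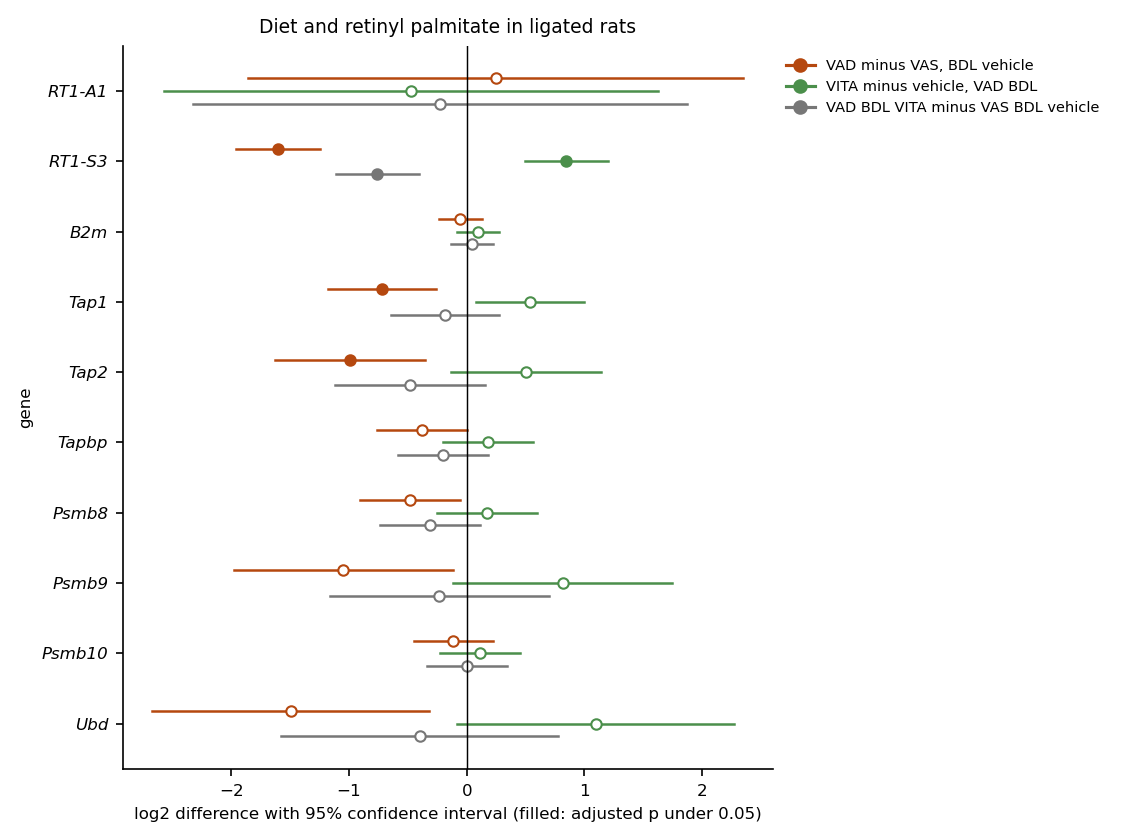
Differences in log2 intensity with 95% confidence intervals for the 10 genes in ligated rats: VAD minus VAS with vehicle, VITA minus vehicle in VAD rats, and VAD BDL VITA minus VAS BDL VEH. RT1-S3 is at -1.60, 0.84 and -0.76 in these, and filled points have an adjusted p under 0.05.

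Retinyl palmitate raised RT1-S3 in deficient ligated rats. The VAD BDL VITA arrays read 10.82, 10.70, 10.77, 11.13 and 10.40, all above the highest VAD BDL VEH array at 10.34. The difference was 0.84 ± 0.17 (adjusted p = 0.00059), and RT1-S3 was the 1 gene of the 10 called, where 17.0% of all genes passed. Within the slides the RT1-S3 value was 1.07, 1.26 and 0.14. Ubd differed by 1.10 ± 0.58 (adjusted p = 0.21), Psmb9 by 0.82 ± 0.46 (adjusted p = 0.24) and Tap1 by 0.54 ± 0.23 (adjusted p = 0.10). None of the 10 passed in VAD sham rats (1.30% of all genes), VAS sham rats (0.0215%) or VAS ligated rats (0%). The counts at an unadjusted p under 0.05 were 1, 0 and 0 (limma), and the 1 was RT1-S3 in VAD sham rats at 0.66 ± 0.19 (adjusted p = 0.084), where the groups did not overlap.

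Set against VAS BDL VEH, RT1-S3 in VAD BDL VITA was lower by 0.76 ± 0.17 (adjusted p = 0.039), the 1 gene of the 10 called where 0.333% of all genes were. This call was kept in 9 of 20 alternative settings. The comparisons of VAD BDL VEH, VAD BDL VITA and VAS BDL VEH share arrays and are not independent of each other.

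Across the 8 groups the order of RT1-S3 means ran from VAD BDL VEH at 9.92 ± 0.35 (SD, n = 5), through VAD BDL VITA at 10.76 ± 0.26 (n = 5), VAD sham VEH at 10.80 ± 0.21 (n = 4) and VAS sham VEH at 11.32 ± 0.11 (n = 4), to VAS BDL VITA at 11.37 ± 0.48 (n = 5), VAD sham VITA at 11.46 ± 0.13 (n = 4), VAS BDL VEH at 11.52 ± 0.21 (n = 5) and VAS sham VITA at 11.67 ± 0.09 (n = 4). The arrays of VAD BDL VITA and VAD sham VEH overlapped, as did those of each pair of neighbours from VAS sham VEH upward. VAD BDL VEH did not overlap with its neighbour, nor did VAD sham VEH with VAS sham VEH, although that difference did not pass.

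The differences between effects were tested as interactions. For diet by ligation in vehicle rats RT1-S3 was the 1 gene of the 10 that passed, where 7.92% of all genes did: its ligation difference was lower in VAD than in VAS rats by 1.08 ± 0.26 (adjusted p = 0.0069). For retinyl palmitate by diet in ligated rats it was again the 1 gene called, where 13.4% of all genes passed, with 1.00 ± 0.25 (adjusted p = 0.0052). Under median scaling these had adjusted p values of 0.081 and 0.063. Ubd, whose ligation difference was 1.72 ± 0.87 smaller in VAD than in VAS vehicle rats, did not pass (adjusted p = 0.26), nor did Psmb8 at -0.73 ± 0.31 (adjusted p = 0.16). None of the 10 passed for diet by ligation in VITA rats (0% of all genes) or for retinyl palmitate by ligation in VAD rats (2.72%), and 1 and 0 had an unadjusted p under 0.05.

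Other class I heavy chains were read from a list of 39 genes, of which 28 were on the array and 18 were tested. Many are close copies of each other, so a probe may read more than one of them, and the counts are not of independent genes. Ligation in VAS vehicle rats raised 6 of the 18 and lowered none (median 0.91), where 17.4% of all genes passed, with RT1-T24-4 at 1.82 (adjusted p = 0.00035), RT1-M6-2 at 1.29, RT1-M10-1 at 1.29 and RT1-M3-1 at 1.27 (adjusted p = 1.1e-05). In VAD vehicle rats 3 rose and 2 fell (median 0.07), a smaller share than the 40.5% of all genes. The 2 that fell were RT1-T18 by 0.95 (adjusted p = 0.01) and RT1-CE7, named here after its values were seen, by 0.61 (adjusted p = 0.018). Deficiency in ligated vehicle rats lowered 7 of the 18 and raised none (median -1.05), where 26.4% of all genes passed. RT1-CE7, with 9.10 ± 0.29 in VAD BDL VEH against 10.49 ± 0.23 in VAS BDL VEH (SD, n = 5 each), fell by 1.38 (adjusted p = 1.4e-06). RT1-CE2 fell by 1.32, RT1-CE15 by 1.29 and RT1-T24-4 by 1.27. Their SDs within groups, pooled over the 8 groups, were 0.84, 0.48 and 0.57, and that of RT1-CE7 was 0.31, as for the median gene. With group means removed, RT1-CE2 correlated with RT1-A1, described below, at -0.66, and RT1-T24-4 at -0.36. Retinyl palmitate in VAD ligated rats raised 5 and lowered none (median 0.70), where 17.0% of all genes passed, among them RT1-CE15 by 1.09 (adjusted p = 0.0063) and RT1-CE7 by 0.91 (adjusted p = 0.00089). The retinyl palmitate by diet interaction in ligated rats was called for 6, all positive (median 1.02), where 13.4% of all genes passed. Without slide 3 the last 2 counts were 2 and 0, and with the slide as a block 6 and 4. Slide 3 held 3 of the 5 VAS BDL VITA arrays and 1 of the 5 VAD BDL VITA arrays.

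MHC class II genes, which present peptides taken up from outside the cell, ran the other way across the diets. All 5 tested class II genes rose after ligation in VAS vehicle rats (median 1.91) and in VAD vehicle rats (median 1.93). Of all genes 17.4% and 40.5% passed there. In sham vehicle rats 3 of the 5 were already higher in VAD than in VAS (1.32 to 1.71), where 1.11% of all genes passed. In ligated vehicle rats all 5 were higher in VAD than in VAS (median 1.18), where RT1-S3 and 7 other heavy chains were lower and 26.4% of all genes passed. Retinyl palmitate in VAD ligated rats lowered all 5, with differences from -1.25 to -0.74, where 17.0% of all genes passed. In the 2 latter comparisons the leukocyte markers moved with class II: 6 of 6 were higher in VAD BDL VEH than in VAS BDL VEH, and 6 of 6 were lower with retinyl palmitate. Markers of other cells moved too. In VAD BDL VEH 3 of 3 stellate cell markers (median 2.47), 5 of 6 cholangiocyte markers (median 1.06) and 7 of 9 macrophage markers (median 1.00) were higher than in VAS BDL VEH. With retinyl palmitate 3 of 3 stellate cell (median -1.98), 2 of 6 cholangiocyte and 6 of 9 macrophage markers were lower. The log2 of the summed leukocyte level was 12.00 to 12.89 in VAD BDL VEH, 11.04 to 11.26 in VAS BDL VEH and 11.24 to 11.66 in VAD BDL VITA. Of the 9 tested markers of T and NK cells, which class I molecules address, 2 were higher and 3 lower in VAD BDL VEH. Cd8a was higher by 1.99 (adjusted p = 8.9e-06) and Gzma, a granule protease, lower by 1.45 (adjusted p = 7.9e-05). The part of these cells in the class I values was not tested.

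**Figure D4:**
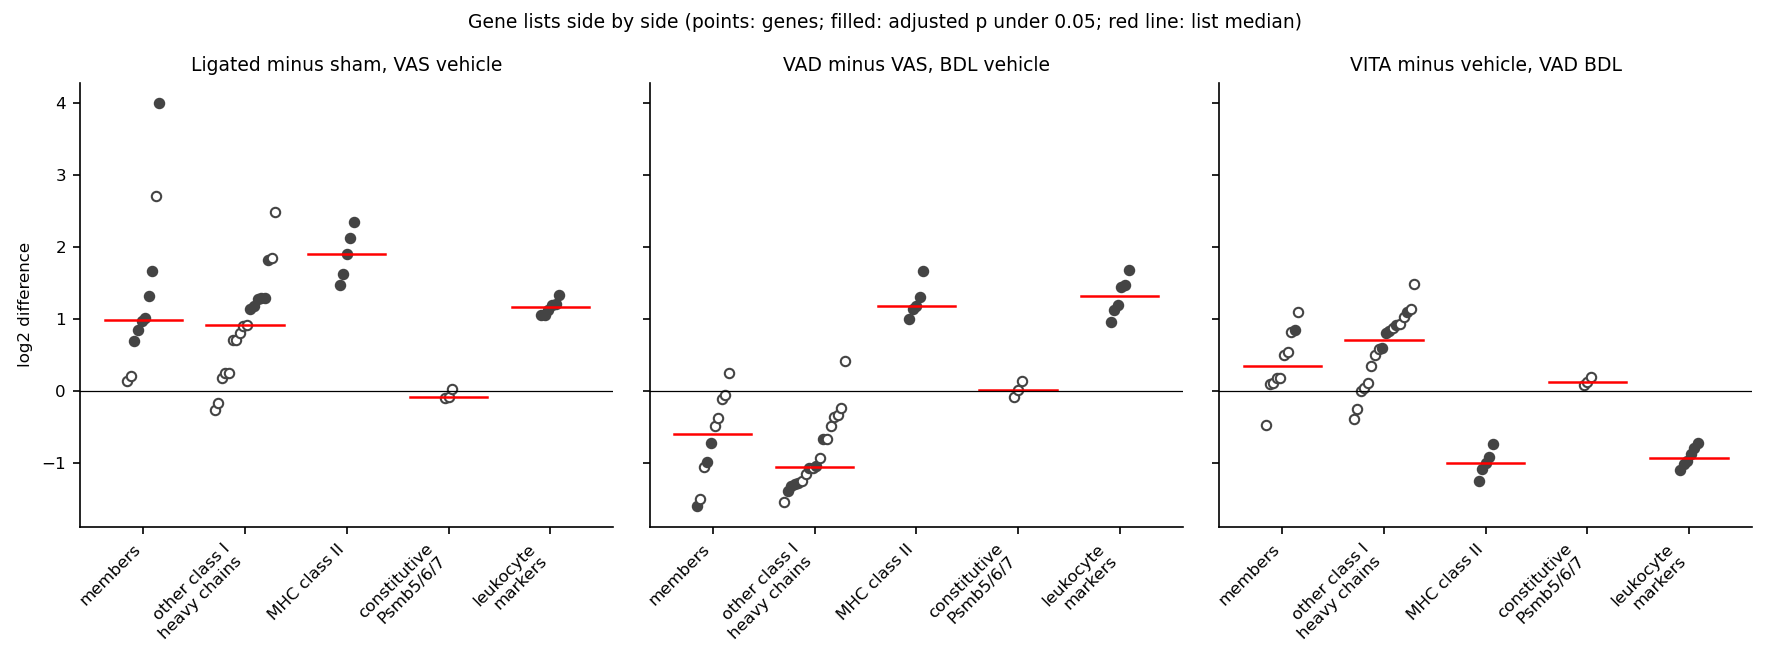
Log2 differences of single genes (points, filled at an adjusted p under 0.05) in 5 gene lists, with list medians as red lines, for ligation in VAS vehicle rats, deficiency in ligated vehicle rats and retinyl palmitate in VAD ligated rats. In the second panel the class I heavy chains have a median of -1.05 and the class II genes 1.18, and in the third the heavy chains are at 0.70 and all 5 class II genes lie between -1.25 and -0.74.

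Genes known to act upstream of class I were followed with a list of 18 tested regulators. After ligation in VAS vehicle rats, where 17.4% of all genes passed, 6 rose and 1 fell: Nfkb2, an NF-kappa B subunit, by 2.56 (adjusted p = 1.3e-05), the interferon gamma receptor chains Ifngr2 by 1.82 and Ifngr1 by 1.25, and the NF-kappa B inhibitor Nfkbia by 1.61 were the 4 with the largest differences. In VAD vehicle rats 6 rose and 2 fell, near the share of all genes (40.5%), with Nfkb2 at 2.18. In ligated vehicle rats 4 were higher and 3 lower in VAD than in VAS, where 26.4% of all genes passed. Ifngr1 was higher by 0.98 (adjusted p = 1.3e-05) and Nfkb1 by 0.71, while Irf7 was lower by 0.89 (adjusted p = 0.046). Jak2, a receptor-associated kinase, was higher by 0.65. Of 31 interferon-stimulated genes 5 were higher and 11 lower in that comparison, against the same 26.4%, among them Cxcl9 at -1.43 (adjusted p = 0.0013), Ifi27 at -1.30 (adjusted p = 4.6e-07), Ifitm3 at 1.26 and Cxcl11 at -1.15. That list holds genes of the regulator list too. Of 12 tested genes of peptide trimming and loading 1 was higher, Hsp90b1 by 0.43 (adjusted p = 0.0099), and 1 lower, the peptidase Lap3 by 0.47 (adjusted p = 0.043).

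RT1-A1 stood apart by its spread. Its SD within groups, pooled over the 8 groups, was 1.77, the fourth largest of 9314 genes, where the median gene had 0.31. The VAD BDL VEH arrays were close together, at 11.48, 11.39, 12.00, 11.33 and 11.63. In VAD BDL VITA they were at 13.38, 12.26, 8.53, 9.19 and 12.11, and in VAS BDL VITA at 9.16, 13.13, 8.23, 11.95 and 8.52. Such jumps within a group occurred in sham rats as well: VAD sham VEH read 10.68, 7.42, 6.43 and 10.84. RT1-A2, a related heavy chain that was chosen for description after its values were seen, had the largest pooled SD of all genes tested, 2.27. On 4 arrays of different groups the RT1-A2 level was 4.67 to 6.02, and on the remaining 32 it was 10.14 to 13.18. Those 4 arrays had RT1-A1 at 11.43 to 13.38, the highest RT1-A1 value of each of their groups. No genotype of the rats is given in the sources used here. Its part in these levels, and in the group differences of the other heavy chains, was not tested.

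**Figure D5:**
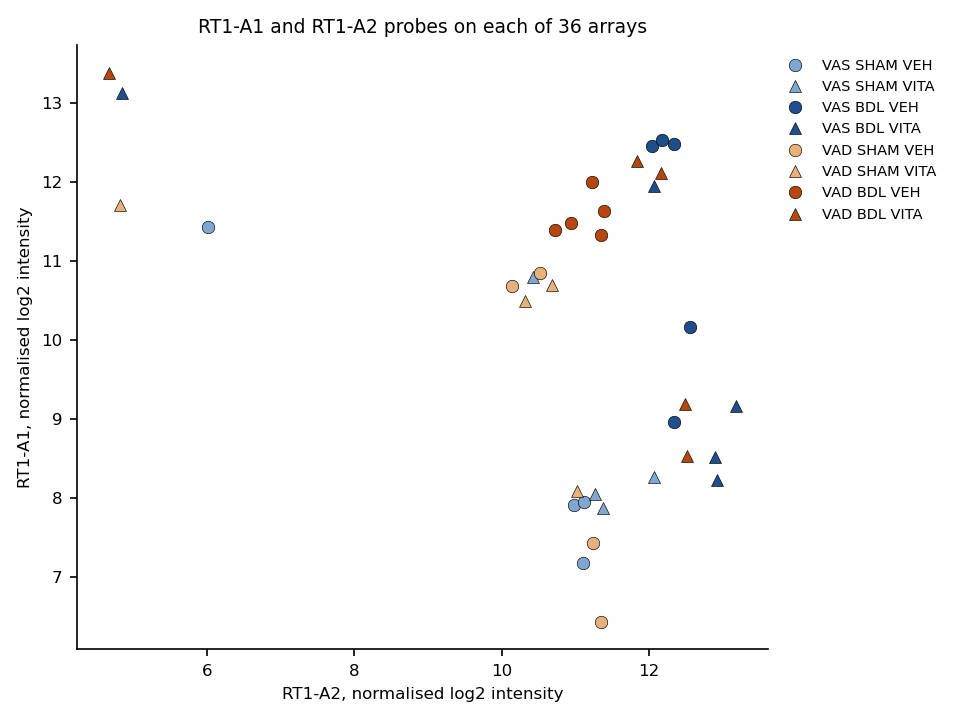
Normalised log2 intensity of the RT1-A1 probe against that of the RT1-A2 probe on each of the 36 arrays, coloured by diet and operation. On 4 arrays RT1-A2 is at 4.67 to 6.02 with RT1-A1 at 11.43 or above, and the other 32 arrays have RT1-A2 at 10.14 to 13.18 with RT1-A1 from 6.43 to 12.53.

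With slide added to the group means, the slide term passed for 2 of the 10 genes, Psmb9 (adjusted p = 2.6e-08) and Tap2 (adjusted p = 0.0013). It passed for 30.1% of all genes, so the count is not above the background. VAS BDL VITA had no array on slide 1 and VAD sham VEH none on slide 2, so slide and group are partly mixed. Psmb9 was lower on slide 3 than on slide 1 by 1.32, and Tap2 by 0.79. Of the other heavy chains named above, the slide term passed for RT1-T24-4, RT1-M10-1, RT1-T18, RT1-CE7, RT1-CE2 and RT1-CE15. It did not pass for RT1-M6-2, RT1-M3-1 or RT1-A2. With the slide as a block Psmb9 passed in all 4 ligation comparisons: 0.71 in VAD vehicle rats (adjusted p = 0.022), 1.21 in VAS VITA rats (adjusted p = 0.00053) and 1.11 in VAD VITA rats (adjusted p = 0.00091) were added to VAS vehicle rats. The Psmb9 difference of deficiency in ligated vehicle rats then also passed, at -0.79 (adjusted p = 0.0096). Within slides 1, 2 and 3 that difference was -0.79, -0.38 and -1.32. Of the 73 values that could be computed within a slide for a called member and comparison, 71 had the direction of the pooled value. They are parts of pooled differences that were already called, so a like direction is largely built in. The exceptions were Tapbp (-0.26) and Psmb10 (-0.17) on slide 3 for ligation in VAD VITA rats, with 1 array per group.

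Likeness to each gene was measured as Pearson's correlation of log2 level over the 36 arrays, with genes outside the list and without a test. Arrays of one group share their treatment, so a value can reflect a shared group pattern, differences among arrays within groups, or both. With group means removed, the correlation was 0.24 for RT1-S3 with SULT1C1 and 0.89 for Psmb9 with Nsl1. RT1-S3 was most like Sh3gl3 (0.87), the cytochrome Cyp2c7 (0.87) and SULT1C1 (0.86). Psmb10 was most like Ifi30 (0.92), a lysosomal thiol reductase of antigen processing, with Trafd1 (0.92) and Synj2 (0.91). Tapbp and Ubd shared Parp4 (0.91 and 0.90) and Tmem106a (0.90 and 0.88) among their 3 closest genes. Tap1 was most like Birc3 (0.83), an NF-kappa B target, and Ltb (0.81), which encodes lymphotoxin beta. Psmb9 was most like Nsl1 (0.91), Psmb8 most like Ostm1 (0.82), and B2m most like Psme1 (0.74). For RT1-A1 the highest value was lower than for these, 0.64 with Sp140.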

How the data were processed

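Liver RNA of 36 rats was measured on 36 Illumina bead arrays, on 3 slides of 12 arrays. The authors deposited an intensity and a detection p-value per probe and array without normalisation, per the file headers, and a second table of normalised intensities, with a normalisation not given in the sources used here. Saturation flags are not part of these values. Groups came from the labels, which call the arrays biological replicates, and replicate numbers name arrays only.

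From the deposited intensities, neqc (limma 3.58.1, R 4.3.3; offset 16) subtracted background, applied quantile normalisation and took log2. Probes were named through their target name in the RefSeq table of GRCr8, which matched 74.44% of 22523. A detection p under 0.01 on 4 or more arrays was required (9545 probes), and each of 9314 genes was read from its brightest probe by mean. limma was fitted to 8 group means (28 residual degrees of freedom), p-values were adjusted over all genes (Benjamini-Hochberg) for each of 17 contrasts, and 0.05 was the threshold. ± after a difference is its SE. The fit was tested on simulated data. Alternatives covered background and scaling, the authors' table, the filter, probes, slide, replicate number and arrays left out. Same-numbered arrays of different groups did not pair: in none of 12 comparisons did every pair's deviations correlate above 0.1 (single pairs from -0.19 to 0.41). Figures were drawn with matplotlib 3.10.9 in Python 3.11.15.

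The members and lists were chosen with earlier results of these data known. Besides the members and Psmb5, Psmb6 and Psmb7, at most 4 called genes per list and contrast were named by size, and genes among the 3 most correlated per member, of which some are not reported here. Promoter windows are RefSeq's.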

Additional observations from a re-analysis of the deposited data

Results flagged for a closer look

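In each group and gene, an array was picked out when its gap to the nearest other array took up most of the group's range (Dixon's 95% limit), which chance does in about 1 in 20 groups. Of 80 sets tested, 7 had such an array. Ubd was at 8.53 in VAD BDL VEH replicate 4, with the next array at 12.98, and at 14.35 in VAS BDL VEH replicate 4, with the next at 13.68. Psmb9 was at 7.35 in VAS sham VEH replicate 4, with the next at 8.85, and Tapbp at 8.81 in VAD BDL VITA replicate 5, with the next at 9.74. RT1-A1 was at 10.79 in VAS sham VITA replicate 1, with the next at 8.26. B2m was at 15.12 in VAD sham VITA replicate 2 and at 14.78 in VAS sham VITA replicate 4.

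RT1-S3 was picked out because its effects differed between groups by a test of the difference. The ligation effect in vehicle rats was lower in VAD than in VAS rats (-1.08), and the effect of retinyl palmitate in ligated rats was higher in VAD than in VAS rats (1.00).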

How the results depend on the processing

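Of the single-gene values under the alternative settings, 3520 stayed on their side of the threshold, 64 lost a call and 36 gained one. No value called in the main or the alternative fit changed direction. Values called in neither fit could change sign, as B2m did for ligation in VAS vehicle rats (0.14 to -0.02). The count of members called moved by over 1.5 times as follows. For ligation in VAD VITA rats it was 8 without slide 3 and 3 when only the groups of the comparison were fitted, against 5. For retinyl palmitate in VAD BDL rats it was 2 with the slide as a block, against 1. For diet by ligation in vehicle rats it was 0 with median scaling and 3 without slide 3, against 1. For retinyl palmitate by diet it was 0 with median scaling and 2 with the replicate block, against 1. For VAD BDL VITA against VAS BDL VEH it was 0 with median scaling, without the filter, without slide 3 and with only the groups compared, against 1. Counts of other heavy chains, an alternative added after seeing the data, were 2 without the filter, 2 without slide 3 and 3 with only the groups compared for retinyl palmitate in VAD BDL rats, against 5, and 3 without the filter and 0 without slide 3 for retinyl palmitate by diet, against 6. The cause was not tested.

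Leaving out 1 array gave 5 to 7, 4 to 5, 5 to 6 and 4 to 8 members for ligation in VAS VEH, VAD VEH, VAS VITA and VAD VITA, 2 to 5 for deficiency in BDL vehicle rats, 1 to 2 for retinyl palmitate in VAD BDL rats, 1 to 2 for retinyl palmitate by diet and 0 to 1 for VAD BDL VITA against VAS BDL VEH, and no other range. The heavy-chain counts ran over 6 to 7, 2 to 3, 2 to 6 and 4 to 7 for ligation, 5 to 8 for deficiency, 2 to 6 for retinyl palmitate and 2 to 8 for its interaction with diet.

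Median scaling, in place of quantile normalisation, moved the median of all genes in VAS vehicle ligation from -0.01 to 0.15, in VAD vehicle ligation from -0.04 to 0.23 and in VAS VITA ligation from -0.01 to 0.15. The share of higher genes among the calls rose from 60.4% to 82.1%, from 51.4% to 75.8% and from 57.2% to 76.9%, and for retinyl palmitate in VAD BDL rats fell from 45.1% to 34.6%. With the replicate block Psmb9 passed for deficiency in BDL vehicle rats (-1.05, adjusted p = 0.026), but the numbers name arrays only.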

Other observations

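Of 5 tested class I-like chains, which share the class I fold but serve other tasks, none passed after ligation in VAS vehicle rats, and 0 had an unadjusted p under 0.05 (limma). In VAD vehicle rats Procr, the endothelial protein C receptor, rose by 1.71 (adjusted p = 1e-05), Fcgrt, the neonatal Fc receptor, rose by 0.35 (adjusted p = 0.046), and Azgp1, a secreted zinc-binding glycoprotein, fell by 0.77 (adjusted p = 1.3e-05). Between the diets in ligated vehicle rats Procr was 2.83-fold higher in VAD (adjusted p = 5.1e-05) and Azgp1 lower by 0.64 (adjusted p = 0.00014). Retinyl palmitate in VAD ligated rats raised Azgp1 by 0.48 (adjusted p = 0.0053).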
